A study of Mus musculus with 6 samples.

Results

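The 9 genes described here encode myeloid C-type lectin receptors. They were Clec4e, Clec4d, Clec4n, Clec7a, Clec5a, Clec4a1, Clec4a2, Clec4a3 and Clec12a, and they were taken by gene symbol from the 41549 genes of a count table of mouse macrophages (Mφs). All 9 were among the 11933 genes with enough reads to be tested. The symbols were chosen by family and not by a threshold on these values, although earlier results of the same libraries were known when they were chosen.

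The study asked whether 5′tRF-Glu(CTC), a piece of a tRNA for glutamate that begins at its 5′ end, is needed when Mφs take on the anti-inflammatory M2 state. Bone marrow of wild-type C57Bl/6N mice aged 10 to 12 weeks was grown for 7 days with macrophage colony-stimulating factor, which gives resting M0 Mφs. These cells were transfected with 50 pmol of a locked nucleic acid antisense against the fragment (αGlu) or of a control antisense (Ctr), and then kept for 48 h with IL-4 together with IL-13. Each group had 3 libraries of stranded mRNA. Both groups share the transfection and both cytokines, so no untreated and no M0 library stands beside them, and only 1 antisense sequence was used against the fragment. The study describes the replicates as independent experiments. Each p-value given here sets the group difference against the spread within groups. It covers these 6 libraries, or those kept where a library was left out.

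The antisense and the stretch of the fragment that it was designed against are shown because they define the contrast. In the target the capitals mark bases 2 to 21, which pair with the 20 bases of the antisense, and both are written 5′ to 3′ in DNA letters.
αGlu antisense: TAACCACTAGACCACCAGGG
target stretch: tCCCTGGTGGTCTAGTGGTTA

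C-type lectin receptors of myeloid cells bind sugars, lipids and other ligands on microbes and on dying cells. Mincle (Clec4e), MCL (Clec4d) and Dectin-2 (Clec4n) pass their signal through the adaptor FcRγ, which carries an activating tyrosine motif, whereas Dectin-1 (Clec7a) carries such a motif in its own tail. These signals reach the kinase SYK and the CARD9, BCL10 and MALT1 complex, which switches on inflammatory genes. DCIR (Clec4a2) and MICL (Clec12a) carry inhibitory motifs that recruit phosphatases such as SHP-1. In Mφs, Mincle is known as a receptor that is low at rest and induced by inflammatory signals, and Dectin-1 as one that is raised by IL-4.

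Total counts lay between 17912831 and 30386653 reads per library. One library stood apart from its label: log2 values of αGlu 1 correlated across genes at a Pearson r of 0.929 with αGlu 2 and αGlu 3, against 0.966 to 0.982 with the Ctr libraries, while αGlu 2 and αGlu 3 correlated at 0.992. The fold change of each lectin is therefore given with all 6 libraries and again without αGlu 1. The fit without αGlu 1 sets αGlu 2 and αGlu 3 against the Ctr libraries. It leaves out a library singled out by these same values. Its SE and p-values lack the spread that αGlu 1 adds, so they serve as description and not as independent support. The labelled cell type was checked with marker genes. All 6 Mφ markers examined were above 1 CPM, with summed values of 6121 to 6384 CPM (counts scaled to the library size) in Ctr and 6066 to 7473 CPM in αGlu. The 5 markers of alternative activation summed to 1888 to 3518 CPM in Ctr and 3215 to 5494 CPM in αGlu. They did not move together. Retnla was at 0.0315 and 0.0367 CPM in αGlu 2 and αGlu 3, against 245 to 539 CPM in Ctr. Arg1 was at 1885 and 1790 CPM in αGlu 2 and αGlu 3, and between 23.4 and 45.1 CPM in the other libraries. Ccl24 was at 9.06 and 16.2 CPM in αGlu 2 and αGlu 3, and at most 0.636 CPM in the other libraries. Chil3 and Pdcd1lg2 had log2 fold changes of 0.50 and 0.14. The summed values of 6 lymphocyte markers did not exceed 0.283 CPM in any library, those of 6 dendritic cell markers 1.25 CPM and those of 5 fibroblast markers 7.17 CPM.

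With all 6 libraries none of the 9 lectins was called by edgeR's quasi-likelihood test (a call needs a log2 fold change beyond 1 in either direction and an adjusted p under 0.1). The share of all tested genes called was also 0%, and the smallest adjusted p of any gene was 0.149. Of the 9 lectins, 3 had an unadjusted p under 0.05, against 24.7% of all tested genes. In 2 lectins every αGlu library lay above every Ctr library, which was so for 14.2% of all tested genes, and in 1 every αGlu library lay below, as for 15.9% of all tested genes. DESeq2 on the same libraries called 2 lectins higher, Clec4d and Clec4e, and none lower, while it called 4.23% of the genes it tested higher and 3.93% lower. Without αGlu 1, edgeR called 5 of the 9. Clec4a1, Clec4d, Clec4e and Clec4n rose in that fit, where 8.05% of genes were called higher, and Clec4a3 fell, where 10.5% were called lower. In that comparison 4 lectins lay above all Ctr libraries (33.6% of all tested genes) and 3 below (32.2%).

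**Figure D1:**
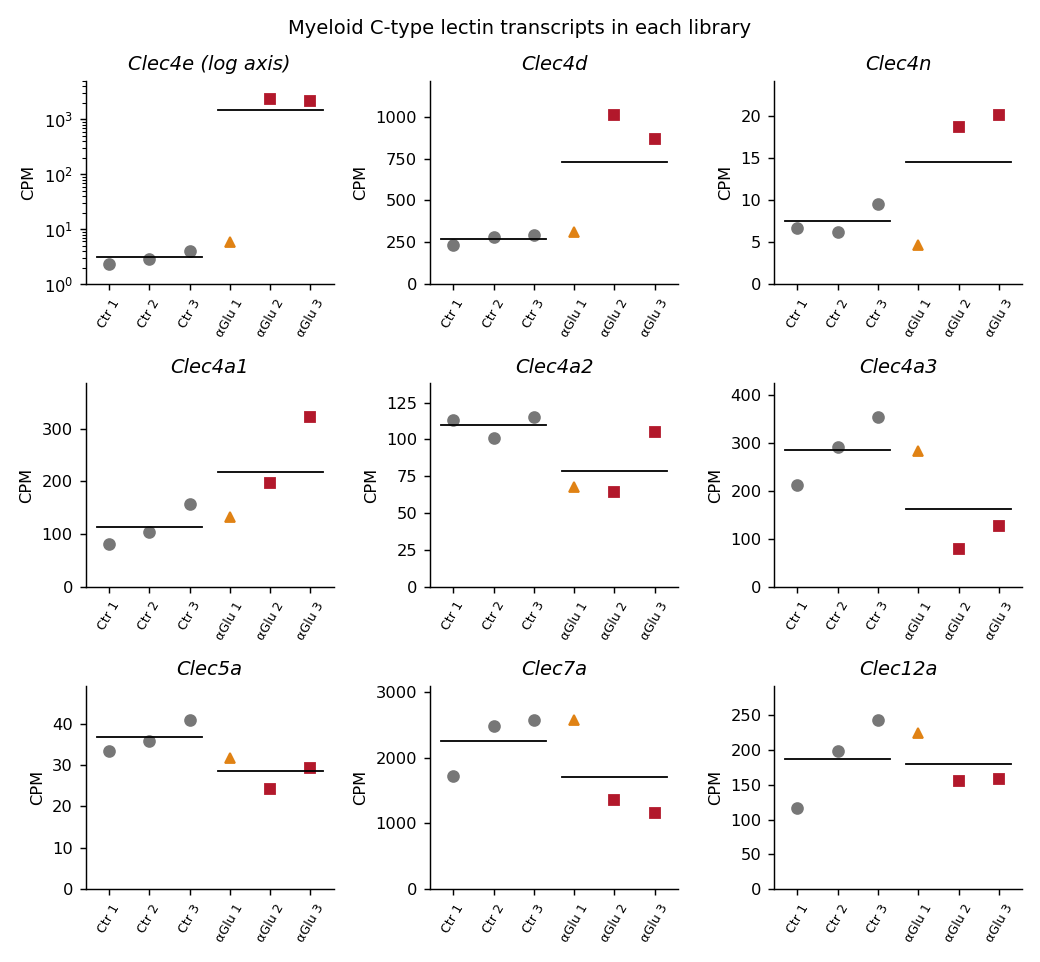
CPM of each lectin transcript (counts relative to library size after TMM scaling) in the 3 Ctr and 3 αGlu libraries, with a black line at each group mean. The axis is logarithmic for Clec4e only, where αGlu 2 and αGlu 3 sit at 2386 and 2143 CPM and the other 4 libraries between 2.36 and 5.79 CPM.

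Clec4e, which encodes Mincle, a receptor for mycobacterial cord factor and for a ribonucleoprotein released by dying cells, had the widest contrast. Its level was 2.36, 2.88 and 4.03 CPM in Ctr 1, 2 and 3. It was 5.79, 2386 and 2143 CPM in αGlu 1, 2 and 3. These are 52, 69 and 87 reads in the Ctr libraries, and 101, 75835 and 58478 reads in the αGlu libraries. The groups did not overlap, but αGlu 1 lay close to the controls. Its 95% exact Poisson interval of 4.71 to 7.03 CPM overlapped that of Ctr 3, 3.23 to 4.98 CPM, and such intervals cover counting error only. The log2 fold change was 8.93 ± 2.11 (SE, n = 3 against 3), the third highest of the 11933 tested genes, with an adjusted p of 0.156 by edgeR's quasi-likelihood test. DESeq2 gave an adjusted p of 4.38e-06. Without αGlu 1 Clec4e rose by 9.51 ± 0.25 on the log2 scale (αGlu 2 and αGlu 3 against 3 Ctr libraries; adjusted p = 7.43e-06 by edgeR). By mean CPM, Clec4e ranked 9960 among the tested genes in Ctr and 47 in αGlu. In bulk RNA, a change in how many cells carry a transcript and a change in how much each cell carries cannot be told apart.

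Clec4d encodes MCL, the partner that pairs with Mincle at the cell surface. Its level was 233, 283 and 295 CPM in Ctr 1, 2 and 3. It was 312, 1010.5 and 869.5 CPM in αGlu 1, 2 and 3. Every αGlu library lay above every Ctr library, although αGlu 1 exceeded the highest of them by only 1.05-fold. The log2 fold change was 1.43 ± 0.43 (SE, n = 3 against 3; adjusted p = 0.160 by edgeR, 0.0147 by DESeq2). Without αGlu 1 Clec4d rose by 1.79 ± 0.13 (adjusted p = 0.000215 by edgeR), which is 3.47-fold.

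Clec4n encodes Dectin-2, a receptor for fungal mannan. Its level was 6.67, 6.18 and 9.51 CPM in the Ctr libraries. It was 4.70, 18.7 and 20.1 CPM in αGlu 1, 2 and 3. αGlu 1 was below all 3 Ctr libraries and αGlu 2 and αGlu 3 were above them, so that the groups overlapped. On the log2 scale the fold change was 0.97 ± 0.53 (SE, n = 3 against 3; adjusted p = 0.289 by edgeR). Without αGlu 1 it rose by 1.38 ± 0.19 (adjusted p = 0.00206).

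Clec7a encodes Dectin-1, the β-glucan receptor. Its level was 1722, 2485 and 2575 CPM in Ctr 1, 2 and 3. It was 2577, 1359 and 1166 CPM in αGlu 1, 2 and 3. αGlu 1 was the highest of the 6 libraries and the other αGlu libraries were the lowest, so that the groups overlapped. The log2 fold change of -0.41 ± 0.36 (SE, n = 3 against 3) was not called (adjusted p = 0.474 by edgeR). Without αGlu 1 it was -0.85 ± 0.20 with an adjusted p of 0.0166, which is under the p threshold but inside the fold limit.

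Clec5a encodes MDL-1, which signals through the adaptor DAP12. Its level was 33.3, 35.8 and 40.9 CPM in the Ctr libraries. It was 31.7, 24.3 and 29.4 CPM in αGlu 1, 2 and 3. All 3 αGlu libraries lay below all 3 Ctr libraries, by a small margin for αGlu 1. The log2 fold change was -0.37 ± 0.13 (SE, n = 3 against 3; adjusted p = 0.177 by edgeR), and without αGlu 1 it was -0.46 ± 0.13 with an adjusted p of 0.0296, again inside the fold limit.

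The 3 Clec4a genes, which belong to the DCIR group, had fold changes of both signs. Clec4a1 stood at 81.4, 103 and 157 CPM in Ctr 1, 2 and 3. It stood at 133, 198 and 322 CPM in αGlu 1, 2 and 3. Only αGlu 1 lay within the Ctr range. Its log2 fold change was 0.93 ± 0.39 (SE, n = 3 against 3; adjusted p = 0.206 by edgeR), and without αGlu 1 the transcript rose by 1.19 ± 0.31 (adjusted p = 0.0251).

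For Clec4a3, a neighbour of Clec4a1, the mean was lower in αGlu. Its level was 212, 291 and 353 CPM in the Ctr libraries. It was 282, 79.3 and 127 CPM in αGlu 1, 2 and 3. αGlu 1 lay inside the Ctr range and the other αGlu libraries lay below it. This gave a log2 fold change of -0.81 ± 0.48 (SE, n = 3 against 3; adjusted p = 0.317 by edgeR), and without αGlu 1 the transcript fell by 1.47 ± 0.28 on the log2 scale (adjusted p = 0.00791).

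Clec4a2, which encodes DCIR itself, with an inhibitory motif in its tail, was at 113, 101 and 115 CPM in Ctr 1, 2 and 3. It was at 67.5, 64.2 and 105 CPM in αGlu 1, 2 and 3. Here αGlu 3, not αGlu 1, lay within the Ctr range. Its fold change on the log2 scale was -0.47 ± 0.20 (SE, n = 3 against 3; adjusted p = 0.215 by edgeR) and without αGlu 1 it was -0.38 ± 0.20 (adjusted p = 0.186). Of the 50-base windows in its annotated exons 6.69% also occur in another gene, Clec4a4 and Clec4b1 among them, so a small part of its reads could have been assigned elsewhere. That share was 0% for Clec4a1, Clec4a3, Clec4d, Clec4e, Clec5a and Clec7a, 0.686% for Clec4n and 0.402% for Clec12a.

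Clec12a encodes MICL, an inhibitory receptor that recognises uric acid crystals. Its level was 117, 199 and 243 CPM in the Ctr libraries. It was 225, 156 and 158 CPM in αGlu 1, 2 and 3. All 3 αGlu libraries lay within the Ctr range. The log2 fold change was -0.05 ± 0.30 (SE, n = 3 against 3; adjusted p = 0.916 by edgeR), and its sign turned with library size alone as the scaling (0.02) and with limma-voom (0.02). Without αGlu 1 it was -0.25 ± 0.28 (adjusted p = 0.512).

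**Figure D2:**
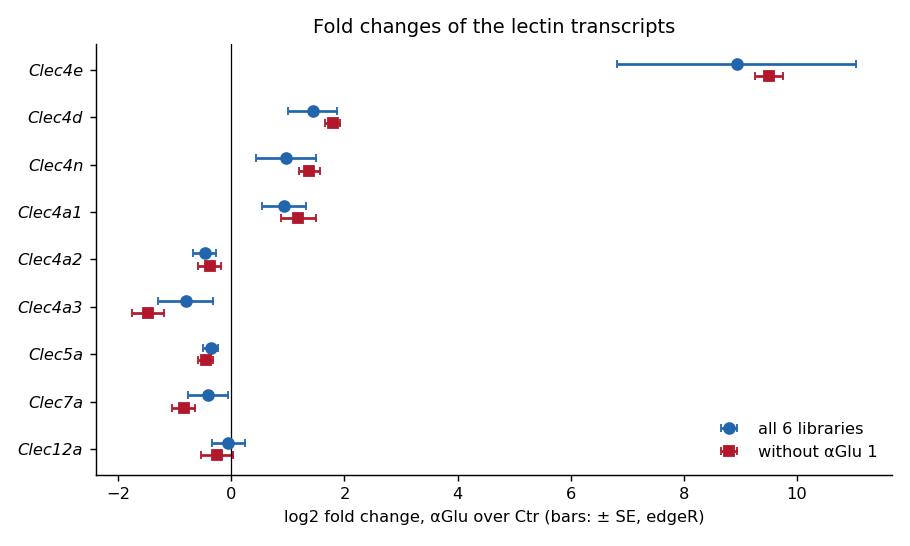
Log2 fold change of each lectin, αGlu over Ctr, with bars of ± 1 SE from the edgeR fit, for all 6 libraries (blue circles) and without αGlu 1 (red squares). For Clec4e the SE is 2.11 with all 6 libraries and 0.25 without αGlu 1, and only Clec4e, Clec4d, Clec4n and Clec4a1 have positive values.

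As a group the lectins had 4 values above 0 and 5 below. Their median log2 fold change was -0.05 with all 6 libraries, beside 0.02 over all tested genes, and -0.25 without αGlu 1, beside 0.01. The median is the value of Clec12a in both fits, and its sign turned under the same alternatives. All 4 positive values belonged to genes of the Clec4 cluster described further on.

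Levels of different lectins were compared per transcript length with the deposited TPM values (reads per transcript length, scaled to the same total in each library). In Ctr the order of mean TPM was Clec7a, Clec4a3, Clec4d, Clec4a1, Clec4a2, Clec12a, Clec5a, Clec4n and Clec4e. Clec7a led with 2010.5 to 2921 TPM, above every other lectin in every Ctr library. Clec4a3 followed with 492 to 796 TPM and Clec4d with 448 to 553 TPM, and these ranges overlapped. Clec4a1 came next with 161 to 301 TPM. The ranges of Clec4a2 (103 to 119 TPM) and Clec12a (65.3 to 132 TPM) overlapped too. Below them Clec5a (26.7 to 31.9 TPM), Clec4n (12.98 to 20.03 TPM) and Clec4e (1.46 to 2.43 TPM) were separate from each other.

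In αGlu 1 this order was close to that of the controls, with Clec7a at 3032 TPM and Clec4e, the lowest, at 3.62 TPM. In αGlu 2 Clec4d led with 2025 TPM, ahead of Clec7a with 1651 TPM and Clec4e with 1539.9 TPM. In αGlu 3 the order of these lectins was the same, with 1789 TPM for Clec4d, 1454 TPM for Clec7a and 1420.0 TPM for Clec4e. Thus both αGlu 2 and αGlu 3 had Clec4d, not Clec7a, as their most abundant lectin of the 9. Over the 3 αGlu libraries 6 of the 8 neighbouring pairs in the order of mean TPM overlapped, against 2 of 8 in Ctr.

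The summed TPM of the 9 lectins was 3338, 4440 and 4875 in the Ctr libraries. It was 4799, 6038 and 5939 in αGlu 1, 2 and 3, so αGlu 1 lay within the Ctr range and the others above it. Clec7a made up 61.1% ± 1.85 (SD, n = 3) of this sum in Ctr and 38.3% ± 21.6 in αGlu. Clec4d made up 12.2% ± 1.08 in Ctr and 25.4% ± 11.2 in αGlu. For Clec4e the share was 0.0442% ± 0.00546 in Ctr and 16.5% ± 14.2 in αGlu, and for Clec4a3 it was 15.3% ± 0.929 and 7.41% ± 5.60. In αGlu the SD exceeded that in Ctr for each of these 4 shares. No test was run on these shares. Of all reads, the 9 lectins took 0.250% to 0.369% in Ctr, and 0.354%, 0.554% and 0.528% in αGlu 1, 2 and 3.

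**Figure D3:**
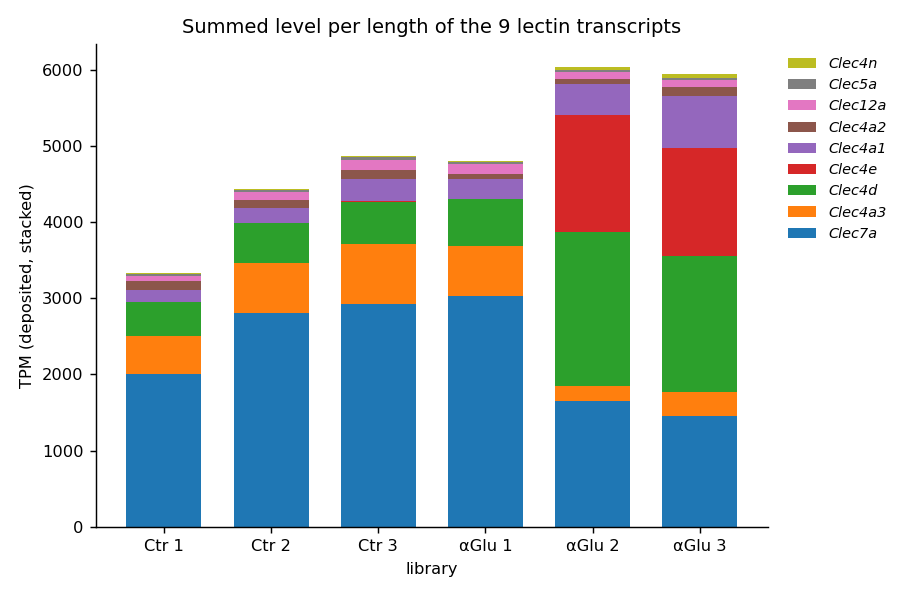
Deposited TPM of the 9 lectins stacked for each library, with 1 bar per library. Clec7a is the largest block in the Ctr libraries and in αGlu 1 (3032 TPM), while Clec4d is the largest in αGlu 2 (2025 TPM) and αGlu 3 (1789 TPM), where the Clec4e block appears.

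All 9 lectin genes lie on chromosome 6 of the GRCm38 build, and their positions are those of GENCODE release M21. Clec5a stands alone at chr6:40574894-40585821 on the minus strand. The 6 Clec4 lectins lie within 368.0 kb that hold 9 protein-coding genes. From one end to the other they are Clec4a1 (chr6:122921848-122934619), Clec4a3 (chr6:122952515-122969875), Clec4a2 (chr6:123106428-123143999), Clec4n (chr6:123229843-123247021), Clec4d (chr6:123262111-123275265) and Clec4e (chr6:123281789-123289870). Clec4e is on the minus strand and the others on the plus strand, so Clec4d and Clec4e face each other with their ends, 6.5 kb apart. Clec12a (chr6:129342691-129365303, plus strand) and Clec7a (chr6:129461591-129472779, minus strand) bound a further 130.1 kb. The annotation lists Clec7a as a polymorphic pseudogene.

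The Clec4 lectins with positive fold changes did not form 1 unbroken block. Clec4n, Clec4d and Clec4e lie next to each other at one end of the cluster, with log2 fold changes of 0.97, 1.43 and 8.93. Clec4a1, at the other end, had 0.93. Between them lie Clec4a3 and Clec4a2, with negative values, and the genes Clec4a4, Clec4b1 and Clec4b2. Clec4b1, a relative that lacks the inhibitory motif of DCIR, was at 10.2, 9.56 and 10.7 CPM in Ctr 1, 2 and 3. It was at 2.64 CPM in αGlu 1, at 0 in αGlu 2 and at 0.0733 CPM in αGlu 3. Its groups did not overlap, and the log2 fold change was -3.66 ± 1.35 (SE, n = 3 against 3; adjusted p = 0.181 by edgeR). Without αGlu 1 Clec4b1 fell (adjusted p = 6.68e-05). Its value of -8.03 rests there on 2 αGlu libraries with 0 and 2 reads. Clec4a4, named here after its values were seen, had 64 reads in all 6 libraries together, and Clec4b2, named likewise, had 2.

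Between Clec12a and Clec7a the values were low throughout. Clec1b, known from platelets, was at 3.18, 12.4 and 12.8 CPM in the Ctr libraries. It was at 5.79, 5.06 and 2.97 CPM in αGlu 1, 2 and 3. The groups overlapped and the log2 fold change was -1.04 ± 0.55 (SE, n = 3 against 3; adjusted p = 0.278 by edgeR). Clec1a was at 1.09, 1.96 and 1.53 CPM in Ctr. It was at 2.64, 0.346 and 0.257 CPM in αGlu 1, 2 and 3. αGlu 1 was the highest library and the groups overlapped (log2 fold change -0.57 ± 0.90, adjusted p = 0.699). Without αGlu 1 Clec1a fell by 2.32 ± 0.42 on the log2 scale (adjusted p = 0.00636).

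**Figure D4:**
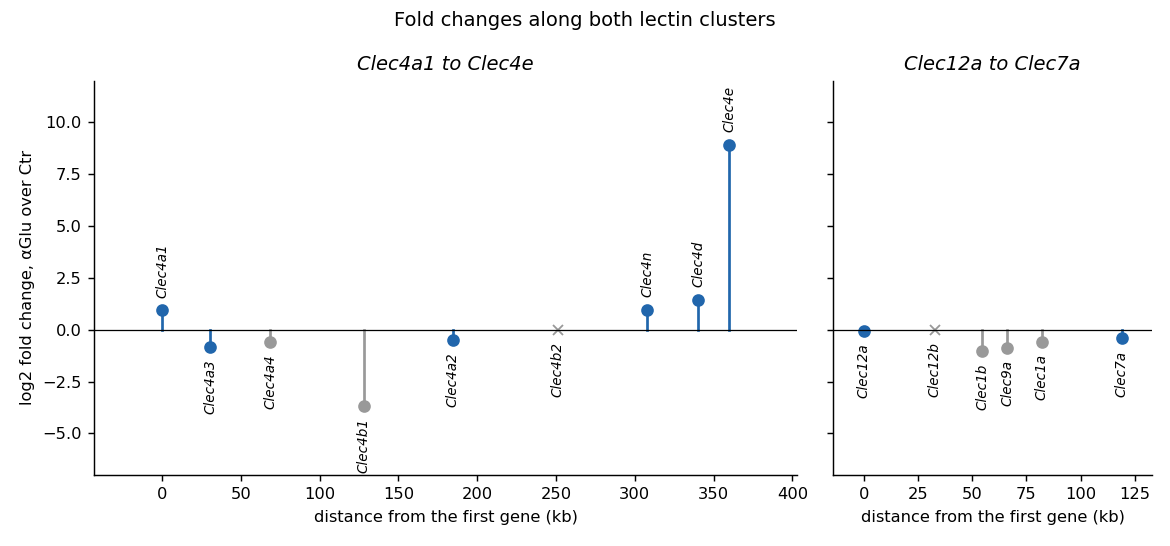
Log2 fold change (αGlu over Ctr, all 6 libraries) of the protein-coding genes and of Clec7a along both lectin clusters, against the distance in kb from the first gene. Lectins of the report are blue, other genes grey, and a cross marks a gene with too few reads to test. Clec4e stands at 8.93, its neighbour Clec4d at 1.43, and Clec4b1 at -3.66.

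The 250 bases before the annotated RefSeq start of Clec4e and of Clec4d are shown because these neighbours were the only ones of the 9 lectins called by DESeq2 and both rose without αGlu 1. The sequences are from RefSeq on GRCm38.p6, written 5′ to 3′ on the strand of the gene, at chr6:123289872-123290121 for Clec4e and chr6:123261857-123262106 for Clec4d. Capitals mark the matches to the motifs searched on either strand.
Clec4e: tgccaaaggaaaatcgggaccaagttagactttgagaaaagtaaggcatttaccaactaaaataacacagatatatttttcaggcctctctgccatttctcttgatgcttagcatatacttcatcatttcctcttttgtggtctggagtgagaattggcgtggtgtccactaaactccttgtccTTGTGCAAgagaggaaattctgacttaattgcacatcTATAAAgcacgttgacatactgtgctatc
Clec4d: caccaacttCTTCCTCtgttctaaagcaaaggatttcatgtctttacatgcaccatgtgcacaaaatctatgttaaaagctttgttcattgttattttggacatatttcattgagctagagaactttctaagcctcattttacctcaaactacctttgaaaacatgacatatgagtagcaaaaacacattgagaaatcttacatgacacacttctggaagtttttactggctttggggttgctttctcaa

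The motifs were searched in windows from 250 bases before to 50 after each of 32851 RefSeq starts. In Clec4e a match to the C/EBP motif TTGCNNAA, read on the opposite strand, starts 66 bases before the gene start, and a TATA motif (TATAAA) 29 bases before it. The C/EBP letters occur in 10.8% of all windows and the TATA letters in 13.6%. Clec4n had no window in this set and was not searched, so the counts of lectins cover the others only. Of these lectins 2 had the C/EBP letters, Clec4e and Clec12a, and 4 had the TATA letters. In Clec4d the only match was to the PU.1 motif GAGGAAG, on the opposite strand 241 bases before the start. The PU.1 letters occur in 13.6% of all windows and in 4 of the lectins searched. The AP-1 motif TGANTCA (7.8% of windows) occurred in 2 lectins, the STAT6 motif TTCNNNNGAA (7.0%) in 3, and the κB motif (4.5%) in none of those searched. The matches shown do not overlap each other. They describe letters only, and binding was not measured.

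Of the 3 adaptor genes listed for these receptors none was called, with or without αGlu 1. The shares of all tested genes called were 0% with all 6 libraries, and 8.05% higher and 10.5% lower without αGlu 1. Fcer1g, which encodes FcRγ, was at 645, 690 and 783 CPM in Ctr 1, 2 and 3. It was at 757, 792 and 869 CPM in αGlu 1, 2 and 3. The groups overlapped (log2 fold change 0.19 ± 0.13, n = 3 against 3; adjusted p = 0.378 by edgeR).

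Tyrobp, which encodes DAP12, was at 877, 922 and 911 CPM in the Ctr libraries. It was at 839.5, 467 and 489.9 CPM in αGlu 1, 2 and 3. All αGlu libraries lay below all Ctr libraries (log2 fold change -0.59 ± 0.25, n = 3 against 3; adjusted p = 0.211 by edgeR). Without αGlu 1 the value was -0.92 ± 0.09 with an adjusted p of 0.000547, inside the fold limit. Hcst, which encodes DAP10, averaged 6.34 ± 0.224 CPM in Ctr and 7.20 ± 1.17 CPM in αGlu (SD, n = 3), with overlapping groups (adjusted p = 0.462).

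The 12 genes of the SYK-CARD9 pathway were all tested. None was called, with or without αGlu 1, and 8 had fold changes above 0 and 4 below, with a median log2 value of 0.05. Of all tested genes 0% were called with all 6 libraries. Without αGlu 1, 8.05% were called higher and 10.5% lower. Syk was at 526, 499 and 444 CPM in Ctr 1, 2 and 3. It was at 447, 602 and 551 CPM in αGlu 1, 2 and 3. Its groups overlapped (adjusted p = 0.614). Card9 averaged 39.5 ± 2.14 CPM in Ctr and 42.8 ± 1.28 CPM in αGlu (SD, n = 3), also with overlap (adjusted p = 0.324).

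The widest of the 12 was Vav1, a guanine nucleotide exchange factor. It was at 135, 139 and 145 CPM in the Ctr libraries. In αGlu 1, 2 and 3 the values were 154, 283 and 267 CPM. The groups did not overlap (log2 fold change 0.75 ± 0.23, n = 3 against 3; adjusted p = 0.162 by edgeR), and without αGlu 1 the value was 0.97 ± 0.08, just inside the fold limit, with an adjusted p of 0.000334. Prkcd, a kinase that phosphorylates CARD9, was at 814, 815 and 783 CPM in Ctr. It was at 696, 498 and 545 CPM in αGlu 1, 2 and 3, all lower (log2 fold change -0.47 ± 0.16, adjusted p = 0.168 by edgeR). Without αGlu 1 the Prkcd value was -0.63 ± 0.09 with an adjusted p of 0.00272. With all 6 libraries DESeq2 gave an adjusted p of 0.0457 for Prkcd and 0.0447 for Vav1. These values too were inside the fold limit. Malt1 was at 131, 112 and 93.8 CPM in Ctr. It was at 63.8, 99.9 and 77.0 CPM in αGlu 1, 2 and 3, with overlap (adjusted p = 0.206).

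Of the 5 genes that restrain the pathway, 3 had fold changes above 0 and 2 below, with a median log2 value near 0 (0.0049). None was called with all libraries, nor was any other tested gene. Cblb, an E3 ubiquitin ligase, was at 364, 367 and 333 CPM in the Ctr libraries. It was at 367, 138 and 149 CPM in αGlu 1, 2 and 3. αGlu 1 was as high as the controls (log2 fold change -0.70 ± 0.40, n = 3 against 3; adjusted p = 0.298 by edgeR), and without it Cblb fell by 1.31 ± 0.09 on the log2 scale (adjusted p = 0.000194). Cbl, a related ligase, averaged 366 ± 55.6 CPM in Ctr and 440.4 ± 17.98 CPM in αGlu, without overlap (adjusted p = 0.274). Inpp5d, which encodes the lipid phosphatase SHIP1, averaged 242 ± 5.09 and 259.7 ± 11.3 CPM, also without overlap (adjusted p = 0.463). The margins were small, as the lowest αGlu library was 1.02-fold the highest Ctr library for Cbl and 1.002-fold for Inpp5d. Of all tested genes 14.2% were higher in αGlu without overlap. Ptpn6, which encodes SHP-1, averaged 330.1 ± 64.2 CPM in Ctr and 322 ± 63.6 CPM in αGlu, with overlap (SD, n = 3; adjusted p = 0.919).

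Among 24 other C-type lectin receptors, 12 were tested, and 4 had no read in any library (Clec4f, Clec4g, Cd209b and Cd209d, named here after their values were seen). By edgeR none was called with all 6 libraries, 5 had fold changes above 0 and 7 below, and the median log2 value was -0.49. DESeq2 called Ly75 and Olr1 higher and Mgl2 and Colec12 lower with the same libraries. It called 4.23% of the genes it tested higher and 3.93% lower. Without αGlu 1, 4 of the 12 rose and 5 fell, where 8.05% of all tested genes were called higher and 10.5% lower. Mgl2, a galactose-binding lectin of alternatively activated Mφs, was at 87.8, 66.3 and 83.9 CPM in Ctr 1, 2 and 3. It was at 10.6, 0.503 and 2.35 CPM in αGlu 1, 2 and 3. Every αGlu library, αGlu 1 included, lay well below the controls. The log2 fold change was -4.22 ± 0.98 (n = 3 against 3), with an adjusted p of 0.156 by edgeR and 0.000122 by DESeq2. Without αGlu 1 Mgl2 fell by 5.85 ± 0.49 on the log2 scale (adjusted p = 0.000320).

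Olr1, the receptor for oxidised low-density lipoprotein, was at 2.59, 2.84 and 2.41 CPM in the Ctr libraries. It was at 2.18, 21.7 and 10.4 CPM in αGlu 1, 2 and 3. αGlu 1 was the lowest of all. The log2 fold change was 2.14 ± 0.75 (n = 3 against 3), with an adjusted p of 0.175 by edgeR and 0.0339 by DESeq2. Without αGlu 1 Olr1 rose by 2.62 ± 0.32 (adjusted p = 0.00134 by edgeR). Of the remaining 7 called without αGlu 1, Ly75, Cd302 and Mrc1 rose and Colec12, Clec1a, Clec9a and Clec4b1 fell. With all 6 libraries the groups of Ly75, Colec12 and Clec4b1 did not overlap, and those of Cd302, Mrc1, Clec1a and Clec9a did. Colec12 was at 59.9, 63.6 and 56.98 CPM in Ctr 1, 2 and 3. It was at 28.3, 19.9 and 19.2 CPM in αGlu 1, 2 and 3 (adjusted p = 0.149 by edgeR, 2.35e-09 by DESeq2). For Ly75 the lowest αGlu library lay 1.43-fold above the highest Ctr library (adjusted p = 0.156 by edgeR, 0.00118 by DESeq2). Ly75, Cd302, Mrc1, Colec12 and Clec9a are named here after their values were seen. Mrc1, the mannose receptor of alternatively activated Mφs, thus went the opposite way to Mgl2 without αGlu 1, by 1.15 ± 0.20 on the log2 scale (adjusted p = 0.00557).

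**Figure D5:**
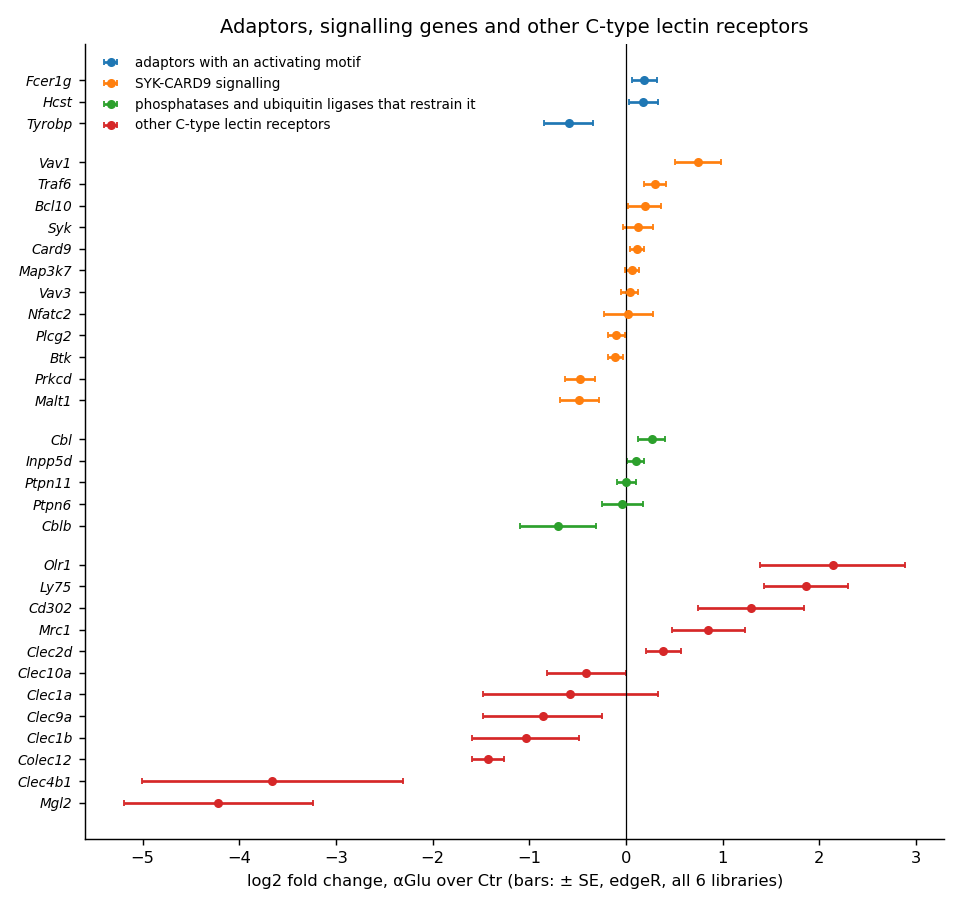
Log2 fold change (αGlu over Ctr, all 6 libraries) with bars of ± 1 SE from the edgeR fit for the tested genes of 4 lists, coloured by list and ordered by value within it. The signalling genes lie between Malt1 at -0.48 and Vav1 at 0.75, while the other C-type lectin receptors reach from Mgl2 at -4.22 to Olr1 at 2.14.

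Markers of other myeloid cells differed between the groups in both directions. The summed values of 11 neutrophil markers were 108 to 160 CPM in Ctr and 187 to 609 CPM in αGlu, with 187 CPM in αGlu 1. Nearly all of this was Csf3r, at 103, 141 and 158 CPM in Ctr and 183, 536 and 607 CPM in αGlu, and no other marker of this list exceeded 2.59 CPM in any library. Without αGlu 1, 5 of the 11 had enough reads to be tested. Of these, edgeR called 2 higher (Csf3r and S100a8) and 3 lower (S100a9, Ngp and Mpo). In that fit 8.05% of all tested genes were called higher and 10.5% lower. Ngp had 20, 39 and 9 reads in the Ctr libraries and 7, 0 and 0 reads in αGlu 1, 2 and 3. The defining neutrophil markers Ly6g and Retnlg had 0 reads in every library. The summed values of 5 monocyte markers were lower in αGlu, 4.41 to 11.2 CPM against 12.8 to 17.2 CPM in Ctr, with Ccr2 at 2.41, 0.409 and 0.843 CPM in αGlu against 11.2 to 15.95 CPM in Ctr. Ly6c2 reached 7.14 and 5.83 CPM in αGlu 2 and αGlu 3, and at most 0.459 CPM in the other libraries. The part of these shifts in the lectin values was not tested. These marker genes are named after their values were seen.

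Profiles over the 6 libraries were compared by the Euclidean distance between log2 CPM values centred on their mean, over 10544 candidate genes. This is a description without a test, and all candidates come from the same libraries. The profiles nearest to Clec4e were those of Nrg1, at a distance of 1.10, Socs3, at 2.05, and Saa3, at 2.09. Nrg1, which encodes a growth factor, was at 0.454, 0.459 and 0.510 CPM in Ctr. It was at 0.458, 241 and 255 CPM in αGlu 1, 2 and 3. Socs3, an inhibitor of cytokine signalling, did not exceed 0.772 CPM in Ctr, and was at 0.516, 221 and 216 CPM in the αGlu libraries. Saa3, an acute-phase protein, was at 4.59 to 5.75 CPM in Ctr, whereas αGlu 1, 2 and 3 had 10.3, 13502 and 12414 CPM. All 3 share with Clec4e a low αGlu 1 and high αGlu 2 and αGlu 3.

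The profiles nearest to Clec7a were those of Aig1, at a distance of 0.158, Ly9, at 0.241, and Plekhf2, at 0.274. Ly9, a cell adhesion receptor of immune cells, was at 761, 979 and 1144 CPM in Ctr. It was at 1183, 631 and 575 CPM in αGlu 1, 2 and 3. αGlu 1 was its highest library and, as for Clec7a, the other αGlu libraries were the lowest. Values of Aig1 lay between 23.7 and 32.2 CPM in Ctr. In αGlu 1, 2 and 3 they were 31.9, 17.5 and 16.2 CPM. Those of Plekhf2 lay between 87.0 and 111 CPM in Ctr, and were 107, 61.3 and 58.6 CPM in αGlu 1, 2 and 3. Among the lectins themselves the closest pair of profiles was Clec4a2 and Clec5a, at a distance of 0.597, and no lectin was nearer to Clec4e than Clec4d, at 8.72.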

How the data were processed

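The authors sequenced stranded mRNA libraries and used the RNA-seq Analysis Portal of QIAGEN to process them. The submitters' processing notes name the build GRCm38. The aligner, the annotation, the treatment of reads that fit several genes and the use of strand in counting are not given in the sources used here. Per the file headers, the authors deposited for each library whole-number counts of reads per gene, RPKM (counts scaled by exon length and depth) and TPM. The deposited CPM columns were not used.

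Tests used the deposited counts. Genes were filtered with filterByExpr of edgeR 4.0.16 in R 4.3.3 (minimum count 10, minimum total 15), scaled with TMM factors and fitted with a quasi-likelihood model with the group as the only term. Two-sided p-values were adjusted over all tested genes by the Benjamini-Hochberg method, and a call needed a log2 fold change beyond 1 in either direction and an adjusted p under 0.1. Each SE is the absolute log2 fold change over the square root of F. CPM is the count relative to the library size after TMM scaling, with a prior count of 2 on the log2 scale. The deposited RPKM served only to derive exon lengths from the counts, and TPM was used as deposited. The models were first run on counts simulated with the spread of the Ctr libraries and the same fold in every αGlu library. No simulated library stood apart as αGlu 1 does, so this run does not cover that feature.

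The lectins and the gene lists were chosen with earlier results of these data known. Named genes were the 9 lectins, 3 adaptors, in each other pathway list the 3 largest absolute fold changes with a mean CPM of at least 1, plus Syk, Card9 and Ptpn6, the 3 nearest profiles to Clec4e and to Clec7a with a mean CPM of at least 1 (gene models left out), and cluster neighbours with a mean CPM of at least 1. Shared windows of 50 bases were counted between annotated transcripts, and positions came from GENCODE M21 on the same build, which held 41474 of the 41549 identifiers. Alternatives were DESeq2 1.42.0, limma-voom (limma 3.58.1), other scalings and filters, no fold limit, the replicate number as a block, and each library left out in turn. Protein features were not analysed here.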

Additional observations from a re-analysis of the deposited data

How the results depend on the processing

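Leaving out αGlu 1 changed the counts of calls most. Over the 6 settings that each leave out 1 library, calls over all genes ranged from 0 to 2290, called lectins from 0 to 5, lectins whose groups did not overlap from 3 to 7 and called genes of the 4 pathway lists from 0 to 10, and each highest value is that without αGlu 1. DESeq2 called 1119 genes over all, 2 lectins and 4 pathway genes, which were Mgl2, Ly75, Olr1 and Colec12. The Clec12a fold change turned positive with limma-voom (0.021) and with library size alone (0.024), and ranged from -0.29 to 0.18 as libraries were left out. That of Ptpn6 turned positive with library size alone (0.042) and in 4 leave-one-out settings, where its values were 0.0022, 0.012, 0.072 and 0.082, the leave-one-out range being -0.21 to 0.082. The cause of these reversals was not tested. The median over all genes was 0.02, and 0.10 with library size alone. The other 8 lectins kept their direction under all 13 alternatives, with Clec4e between 6.19 (limma-voom) and 9.51 (without αGlu 1) (adjusted p 4.38e-06 to 0.427) and Clec4d between 1.13 and 1.79 (adjusted p 0.000215 to 0.427).

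Same-numbered libraries of both groups deviated from their group means with a correlation of 0.076, 0.065 and 0.15. Differently numbered libraries had correlations from -0.11 to 0.046, all below these. The sources do not say whether the numbers pair these libraries. The paper used a paired t test for the fragment level after this transfection. The main fit treated the libraries as unpaired, and these values do not settle the matter. With the replicate block 17 genes were called over all and 0 lectins.

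Relating levels per length from CPM gave the same shares by construction and says nothing of their stability. With 3 libraries a group, 1 of which stands apart, the spread in αGlu limits every comparison, and depth limits Clec4e in Ctr and genes near 1 CPM.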
